A study of Homo sapiens with 4 samples.

Results

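The cornified envelope genes of squamous epithelium were examined in RNA immunoprecipitated with TIA1, an RNA-binding protein, in the human esophageal squamous cell carcinoma (ESCC) cell line KYSE180. The set comprised SPRR1A, SPRR1B, SPRR2A, SPRR3, IVL, TGM1, CSTA, EVPL and PPL, chosen by name, and its members were the non-control probes whose transcript identifier maps to 1 of these symbols. It held 9 genes with 11 probes, of 24136 genes and 50599 probes on the array. Of these 9 genes, 8 were detected and tested among 13038 genes in all, and IVL was not.

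KYSE180 is an established line grown from an ESCC, and no allele or treatment is given for either group, so the groups shared the line and differed in the RNA taken. RNA that came down with anti-TIA1 antibody from cytoplasmic lysates (TIA1 RIP) was hybridized to 2 single-colour arrays, and total RNA of the line to 2 others, replicates 1 and 2 of each, with 0.2 μg RNA labelled per array. RNA from IgG immunoprecipitates, which would show what binds to the beads without TIA1, was not analysed here. Neither the labels nor the methods say whether the replicates came from separate cultures or whether the total RNA was cytoplasmic, so p-values measure only the spread between these arrays.

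The cornified envelope is the tough protein shell that replaces the plasma membrane of squamous cells late in differentiation. Involucrin (IVL), envoplakin (EVPL) and periplakin (PPL) form an early scaffold under the membrane, transglutaminases such as TGM1 join its parts by covalent bonds, and the small proline-rich proteins (SPRR) are added as cross-bridges. CSTA encodes cystatin A, an inhibitor of cysteine proteases that is itself built into the envelope. In the esophagus the suprabasal layers express these genes, SPRR3 most typically, and TIA1 is known to bind RNA at U-rich stretches, often in the 3′ UTR.

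On the GRCh37 build, IVL, SPRR1A, SPRR3, SPRR1B and SPRR2A lie together within 149 kb of chromosome 1, from 152881022 to 153029988, in the cluster known as the epidermal differentiation complex. SPRR2A is on the minus strand and the other 4 on the plus strand. TGM1 lies on chromosome 14 from 24718320 to 24733638, CSTA on chromosome 3 from 122044095 to 122060816, EVPL on chromosome 17 from 74000583 to 74023387 and PPL on chromosome 16 from 4932508 to 5010742. The 5 genes of the cluster have 2 exons each and CSTA has 3, whereas TGM1 has 15 and EVPL and PPL have 22 each.

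The 3′ UTRs of the canonical GENCODE transcripts were short, from 199 bases in TGM1 to 877 bases in PPL, with a median of 326 bases against 1193 bases over 11512 kept genes. For 5 members, the 25 bases with the most U in the 3′ UTR are shown, because TIA1 binds U-rich RNA. SPRR1B and CSTA had the highest ratios of TIA1 RIP to total RNA, TGM1 and PPL had the lowest, and SPRR2A had the ratio nearest to 0. None of these ratios reached an adjusted p under 0.05 in limma, and their order changed with the array left out. A link between the windows and the ratios was not tested. Capitals mark runs of 3 or more U. Each window lies in the last exon of its gene and is written 5′ to 3′ on the transcript strand.
SPRR1B: aUUUgccuugcaauuagcauucugu
CSTA: uuaUUUcuucaauuaUUUcucaUUU
SPRR2A: uucuguugauguguucugugucugu
TGM1: agaugcuaauaaacugUUUUUUaau
PPL: gaugccUUUUccucccUUUUccugu
These windows lie at chr1:153005168-153005192 (plus strand), chr3:122060518-122060542 (plus), chr1:153028677-153028701 (minus), chr14:24718323-24718347 (minus) and chr16:4933115-4933139 (minus). The window of CSTA held 16 U, that of SPRR2A 14 without any run of 3, that of PPL 12, and those of SPRR1B and TGM1 11 each. The median of the richest window was 12 U over the 9 members, 14 U over the 3579 kept genes with a 3′ UTR of the same range of length and 16 U over all 11512. Those 3579 genes had a median 3′ UTR of 481 bases, so they share the range of the members but are not matched to them in length.

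UUUUU, searched on the transcript strand, occurred in the 3′ UTR of 1 of 9 members, in the run of 6 U of TGM1. It occurred in 63.6% of the kept genes of that range of length and in 78.7% of all of them. AUUUA was found once in CSTA and 4 times in PPL, so in 2 of 9 members, against 49.7% and 69.9% of the same gene sets. The share of U in the 3′ UTR ran from 17.1% in TGM1 to 32.2% in SPRR3, with a median of 27.5%, beside 27.3% for genes of the same range of length. Thus the share of U was near that of other short 3′ UTRs, while a run of 5 or more U was found in TGM1 alone. The genes of that range had longer 3′ UTRs, with a median of 481 bases against 326 for the members. A longer sequence has more places for a motif, so the motif shares are not a comparison at equal length. A match of letters is a description of the annotated transcript and not of a site used in these cells.

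**Figure D1:**
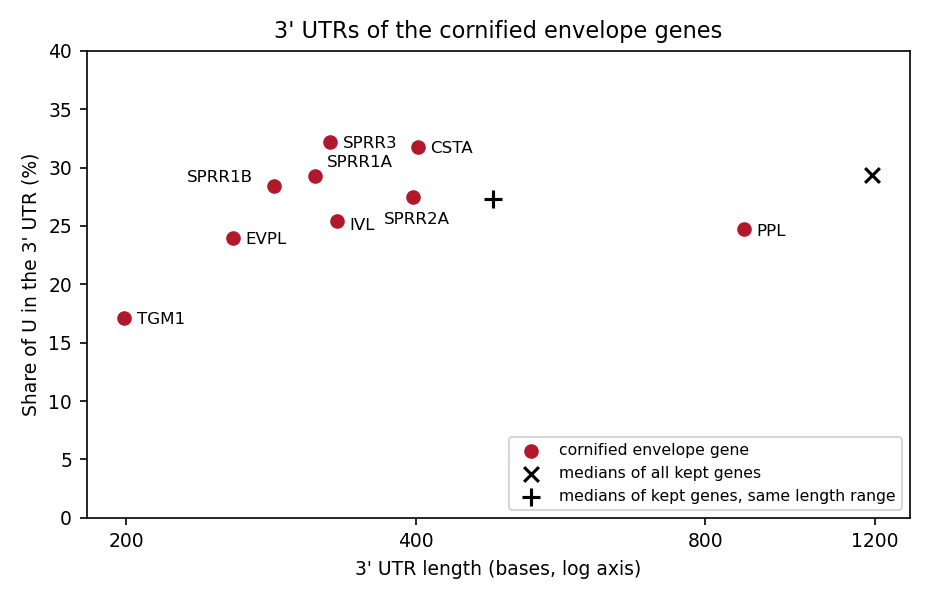
The length of the 3′ UTR (bases, log axis) is plotted against its share of U (percent) for the 9 cornified envelope genes, with crosses for the medians of all kept genes and of kept genes in the same range of length. The members lie between 199 and 877 bases and between 17.1% and 32.2% U, all to the left of the median length of all kept genes, 1193 bases.

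The arrays differed in brightness before any scaling. Signals at the 75th percentile were 1514 and 1271 in TIA1 RIP replicates 1 and 2, and 714 and 69.9 in total RNA replicates 1 and 2. Spots well above background made up 45.8%, 48.4%, 47.6% and 32.2% of these arrays in turn. Total RNA replicate 2 was therefore much the dimmest, and results are given against each total RNA array as well as against their mean. As a description over the 13038 genes, which are not independent replicates, the arrays of TIA1 RIP correlated at r = 0.932 (Pearson) and those of total RNA at r = 0.733. TIA1 RIP replicate 1 and total RNA replicate 1 correlated at r = 0.936, so that total RNA replicate 1 was closer to a TIA1 RIP array than to the other total RNA array. As a check of the label, the squamous epithelium markers KRT5, KRT14, KRT6A, KRT17, TP63, DSG3 and DSC3 were all kept, 6 of these 7 on all 4 arrays. Of the markers of other cell types, 2 of 6 for columnar epithelium, 1 of 6 for fibroblasts, 3 of 6 for immune cells and 2 of 4 for endothelium were kept. Of these, 2, 0, 2 and 1 in turn were detected on all 4 arrays. Detection was thus not limited to squamous genes, and by itself it does not show that a gene is typical of the line. None of the markers passed the adjusted threshold in limma (the lowest adjusted p was 0.776).

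Detection was judged by the scanner software's flag for a spot well above background. Each member probe had 1 spot per array. Of the 11 probes, 10 were detected on TIA1 RIP replicate 1 and 11 on replicate 2, and in total RNA 10 on replicate 1 and 9 on replicate 2. On all 4 arrays, 9 were detected. By the weaker flag for a signal significantly above background, all 11 were positive on every array. All 8 kept genes had a probe detected on all 4 arrays, against 70.8% of the 13038 kept genes.

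IVL, the scaffold protein of the early envelope, was the member without a measured level in total RNA. Its probe gave a linear signal of 125 and 213 on TIA1 RIP replicates 1 and 2 and of 59.8 and 16.5 on total RNA replicates 1 and 2, and it was well above background on TIA1 RIP replicate 2 alone. The dimmest probe called well above background gave 132 and 150 in TIA1 RIP and 59.3 and 32.2 in total RNA. The signals lay near the limit of detection on each array, and no fold is given, since the mean over TIA1 RIP did not exceed the bound for total RNA. IVL was thus not detectable in total RNA by this flag, which does not show that it was absent.

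For the 8 detected genes, the signal was expressed as log2 minus the 75th percentile of its array (scaled log2 signal), and the log2 ratio is the mean of TIA1 RIP minus the mean of total RNA on this scale. Probes differ in brightness, so levels were compared between arrays and not between genes. The ratio compares RNA that came down with anti-TIA1 antibody with total RNA of the same line, each pooled over many cells. It does not measure a change in the amount of an RNA in the cells, and differences between cells cannot be read from it. No member passed the adjusted threshold of 0.05 in limma in either direction, where 0% of all genes passed as higher and 0% as lower. At an unadjusted p under 0.05, 0 members were higher and 0 lower, against 144 genes (1.1%) and 524 genes (4.02%).

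**Figure D2:**
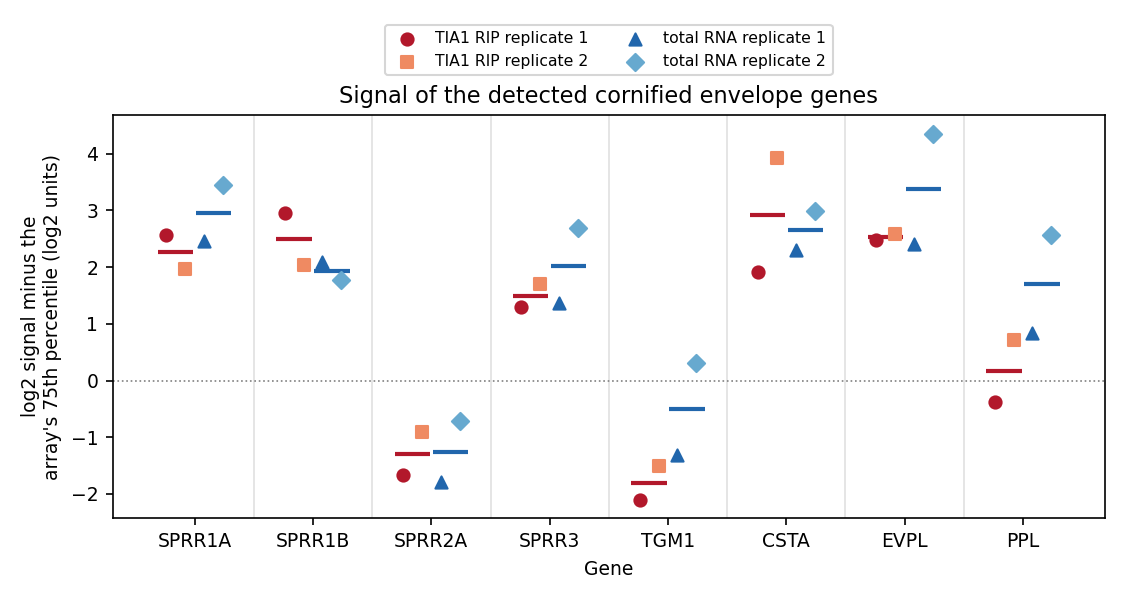
The scaled log2 signal (log2 signal minus the 75th percentile of the array) of the 8 detected cornified envelope genes is plotted for each of the 4 arrays, with a bar at the mean of each group of 2; heights are comparable within a gene and not between genes. Both TIA1 RIP points lie below both total RNA points in TGM1 and PPL, and total RNA replicate 2 is the highest point in 6 of the 8 genes.

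The cross-bridging SPRR proteins came first in number. SPRR1A stood at 2.57 and 1.97 on TIA1 RIP replicates 1 and 2 and at 2.47 and 3.46 on total RNA replicates 1 and 2. SPRR1B, its close paralog, stood at 2.96 and 2.04 on the TIA1 RIP arrays and at 2.10 and 1.77 on the total RNA arrays. The groups overlapped for both genes, total RNA replicate 2 being the highest array for SPRR1A and the lowest for SPRR1B. Their log2 ratios were -0.69 ± 0.83 (SE, adjusted p = 0.843 from limma) and 0.57 ± 0.81 (SE, adjusted p = 0.866), so that neither differed beyond the spread between replicates.

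SPRR1A and SPRR1B may not be fully separated, as their coding sequences share 96.3% of bases in the GENCODE transcripts, and their longest stretch in common is 74 bases. Their 3′ UTRs share 67.2%, and where the probes lie on these transcripts was not known. The pair of SPRR1A probes gave log2 ratios of -0.70 and -0.68. Between total RNA replicates 1 and 2, however, the first moved from 2.40 to 4.39 while the other stayed at 2.53 and 2.53. The mean of the probes therefore hides that only the first was brighter on total RNA replicate 2.

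SPRR3, the family member most abundant in esophageal mucosa, stood at 1.30 and 1.70 on the TIA1 RIP arrays and at 1.36 and 2.69 on the total RNA arrays. Its log2 ratio was -0.53 ± 0.85 (SE, adjusted p = 0.882 from limma), and the lower total RNA array lay between the TIA1 RIP arrays. SPRR2A stood at -1.67 and -0.91 on the TIA1 RIP arrays and at -1.79 and -0.71 on the total RNA arrays. Both TIA1 RIP values of SPRR2A lay within the span of the total RNA values, and its log2 ratio was -0.04 ± 0.84 (SE, adjusted p = 0.994 from limma).

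The SPRR2A value rests on a pair of probes with log2 ratios of 0.15 and -0.22, and the first was not well above background on total RNA replicate 2. SPRR2A shares 99.5% of its coding bases with SPRR2B, 98.2% with SPRR2D, 97.7% with SPRR2E and 96.8% with SPRR2F. The signal listed under SPRR2A may hold RNA of these paralogs, and the sequences of the probes were not used here.

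TGM1, the membrane-anchored enzyme that cross-links the envelope, stood at -2.10 and -1.50 on TIA1 RIP replicates 1 and 2 and at -1.32 and 0.31 on total RNA replicates 1 and 2. Both TIA1 RIP arrays lay below both total RNA arrays. The means were -1.80 ± 0.42 for TIA1 RIP and -0.51 ± 1.15 for total RNA (SD, n = 2), and the log2 ratio was -1.29 ± 0.89 (SE, adjusted p = 0.776 from limma), a 2.45-fold lower mean that did not pass the adjusted threshold.

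CSTA, the cysteine protease inhibitor, stood at 1.92 and 3.92 on the TIA1 RIP arrays and at 2.31 and 2.99 on the total RNA arrays. The lowest and the highest of its 4 values both came from TIA1 RIP. The log2 ratio of 0.27 ± 0.95 (SE, adjusted p = 0.948 from limma) was smaller than the gap between the TIA1 RIP arrays, 2.00, the largest such gap among the 8 members.

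EVPL and PPL encode plakins, which tie the envelope to desmosomes and keratin filaments. EVPL stood at 2.49 and 2.58 on the TIA1 RIP arrays and at 2.41 and 4.36 on the total RNA arrays. PPL stood at -0.39 and 0.72 on the TIA1 RIP arrays and at 0.83 and 2.57 on the total RNA arrays. EVPL thus stood near its TIA1 RIP level on total RNA replicate 1 and well above it on replicate 2, while for PPL the groups did not overlap, although TIA1 RIP replicate 2 and total RNA replicate 1 were close. The log2 ratio of EVPL was -0.85 ± 0.92 (SE, adjusted p = 0.828 from limma). That of PPL, -1.53 ± 0.94 (SE, adjusted p = 0.776 from limma), was the lowest of the 8, with 10.9% of all genes lower still.

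Over the 8 members the log2 ratio ran from -1.53 to 0.57 with a median of -0.61, beside a median of -0.04 over all genes. The latter depended on the filter, being -0.35 over genes with probes detected on all 4 arrays and -0.57 with no filter on dim probes, where the members' median stayed at -0.61. With normexp background correction the medians were -0.24 over the members and -0.13 over all genes. It was below 0 in 6 of 8 members, against 51.4% of all genes. In 2 of 8 members, TGM1 and PPL, both TIA1 RIP arrays lay below both total RNA arrays, against 21.7% of all genes, and in 0 of 8 did both lie above, against 19.4%. The share that lay below was thus near that of all genes.

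The ratio depended on which total RNA array was used. Both comparisons share the TIA1 RIP arrays. Against total RNA replicate 1 alone, the mean of TIA1 RIP gave log2 differences of -0.20 for SPRR1A, 0.41 for SPRR1B, 0.50 for SPRR2A, 0.13 for SPRR3, -0.48 for TGM1, 0.61 for CSTA, 0.12 for EVPL and -0.66 for PPL. Against total RNA replicate 2 alone, the same differences were -1.19, 0.74, -0.58, -1.19, -2.11, -0.07, -1.82 and -2.40. SPRR2A, SPRR3, CSTA and EVPL changed sign between the total RNA arrays, SPRR1B was above 0 against both, and SPRR1A, TGM1 and PPL were below 0 against both.

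The median over the members was 0.13 against total RNA replicate 1, near the 0.07 of all genes, and -1.19 against total RNA replicate 2, where all genes had -0.29. Members below 0 numbered 3 of 8 against total RNA replicate 1 (46.9% of all genes) and 7 of 8 against total RNA replicate 2 (55.1%). These values are given as a description. The fit with total RNA replicate 2 alone is described with the arrays left out.

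**Figure D3:**
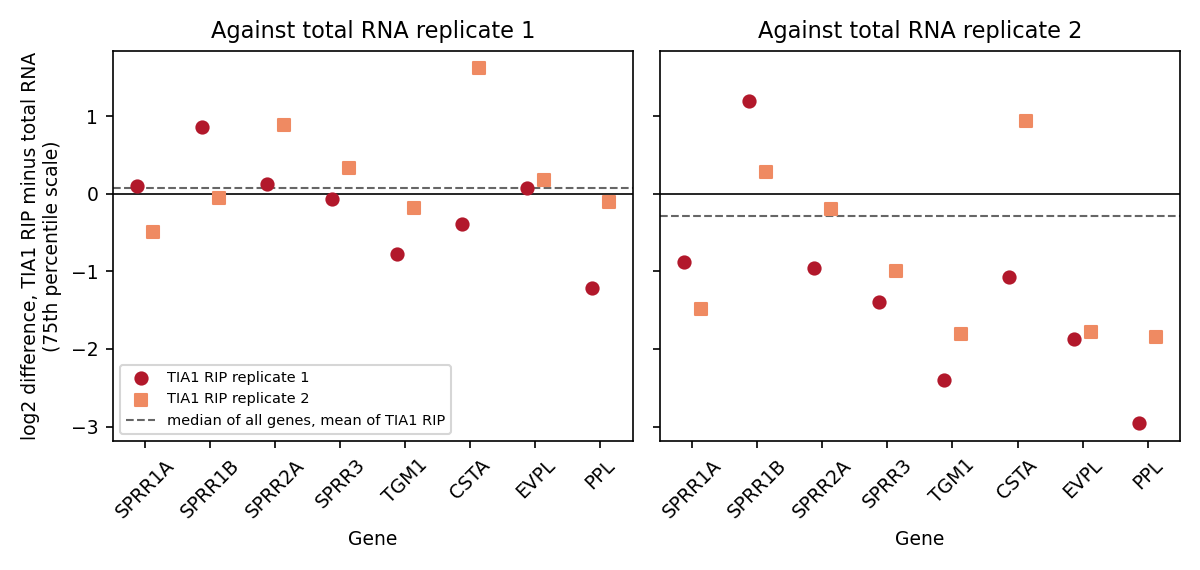
The log2 difference between each TIA1 RIP array and each total RNA array (75th percentile scale) is plotted for the 8 detected genes, total RNA replicate 1 in the left panel and total RNA replicate 2 in the right, with a dashed line at the median of all genes for the mean of TIA1 RIP. The points scatter about 0 on the left, with a median of 0.13 for the mean of TIA1 RIP, and lie lower on the right, with a median of -1.19.

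The total RNA arrays themselves differed for these genes. Total RNA replicate 2 was above replicate 1 in 7 of 8 members, all but SPRR1B, against 57% of all genes. The median log2 difference was 1.20 over the members and 0.38 over all genes, and it reached 1.95 in EVPL. Total RNA replicate 2 was the highest of the 4 arrays in 6 of 8 members, against 46.3% of all genes. The members' median size of this gap, 1.20, was nonetheless below the 1.50 of all genes, whose gaps ran in both directions. Between the TIA1 RIP arrays the median size was 0.68 over the members and 0.48 over all genes.

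Leaving out total RNA replicate 1, the brighter array, brought TGM1 (log2 ratio -2.11, adjusted p = 0.0462 from limma) and EVPL (-1.82, adjusted p = 0.0493) past the threshold as lower, where 15.7% of all genes passed as lower and 14.2% as higher. PPL had -2.40 and an adjusted p of 0.0522 in this limma fit. The lone total RNA array was then assumed to vary like the TIA1 RIP arrays. Both TIA1 RIP values of TGM1 lay below the dimmest detected level of that total RNA array, -1.12. In the limma fits that left out any other array, no member passed. What sets total RNA replicate 2 apart was not tested.

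The study compared enrichment with that of GAPDH, which encodes a glycolytic enzyme. It took this mRNA as no target of TIA1 and as a low-level contaminant of immunoprecipitates. Its list required a limit of 2.5-fold both on arrays and by sequencing of immunoprecipitated RNA, and chosen mRNAs were then checked by PCR. Only the arrays were examined here, so the shares of genes past 2.5-fold are not the share that the study called. GAPDH itself stood at 6.49 and 6.69 on the TIA1 RIP arrays and at 7.67 and 9.63 on the total RNA arrays, a log2 ratio of -2.06 ± 0.93 (SE, adjusted p = 0.776 from limma). Subtracting it from each gene raised every log2 ratio by this amount, so that the median of all genes became 2.02. Relative to GAPDH, the median log2 enrichment of the 8 members was 1.45.

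On the group means, SPRR1B was enriched 6.19-fold over GAPDH, CSTA 5.03-fold, SPRR2A 4.07-fold, SPRR3 2.89-fold and SPRR1A 2.58-fold. EVPL at 2.31-fold, TGM1 at 1.70-fold and PPL at 1.44-fold stayed under the limit. All 4 SPRR genes and CSTA thus passed, and the plakins and the transglutaminase did not, with SPRR1A just inside and EVPL just outside. The 5 of 8 members past 2.5-fold compare with 72.4% of all genes, with 64.2% of genes with probes detected on all 4 arrays and with 56.7% without a filter on dim probes. With normexp background correction, 4 of 8 members and 54.1% of all genes passed. The members' share was thus near that of all genes, above or below it according to the filter.

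No member passed the adjusted threshold relative to GAPDH (adjusted p from 0.221 to 0.559 in limma), and neither did any other gene (0%). At an unadjusted p under 0.05, SPRR2A alone of the 8 was higher, in limma, where 19.5% of all genes were higher and 0.759% lower. The SPRR2A value includes the probe that was not well above background on total RNA replicate 2. With only its probe detected on all 4 arrays, the log2 enrichment went from 2.02 to 1.84. Both TIA1 RIP arrays lay above both total RNA arrays relative to GAPDH in 7 of 8 members, all but PPL, against 76.1% of all genes.

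Each pair of arrays was also taken by itself. SPRR1B passed 2.5-fold in 3 of 4 pairs, with 4.12-fold and 20.2-fold for TIA1 RIP replicate 1 against total RNA replicates 1 and 2 and 1.89-fold and 9.31-fold for TIA1 RIP replicate 2. CSTA gave 1.73-fold and 4.22-fold for TIA1 RIP replicate 1 and 6.01-fold and 14.7-fold for TIA1 RIP replicate 2 against the same arrays. SPRR2A gave 2.47-fold and 4.55-fold for TIA1 RIP replicate 1 and 3.63-fold and 6.70-fold for replicate 2. For all 3 genes the single miss was a pair with total RNA replicate 1.

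SPRR1A and SPRR3 passed in 2 pairs each, both with total RNA replicate 2, and TGM1, EVPL and PPL in none. No member passed in all 4 pairs, against 26.2% of all genes. EVPL varied least, from 2.21-fold to 2.42-fold, and PPL reached from 0.974-fold to 2.13-fold. Against total RNA replicate 1 alone, the mean of TIA1 RIP passed 2.5-fold in SPRR1B, SPRR2A and CSTA, 3 of 8 members beside 42.3% of all genes. Against total RNA replicate 2 alone it passed in 5 of 8, beside 77.5%.

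**Figure D4:**
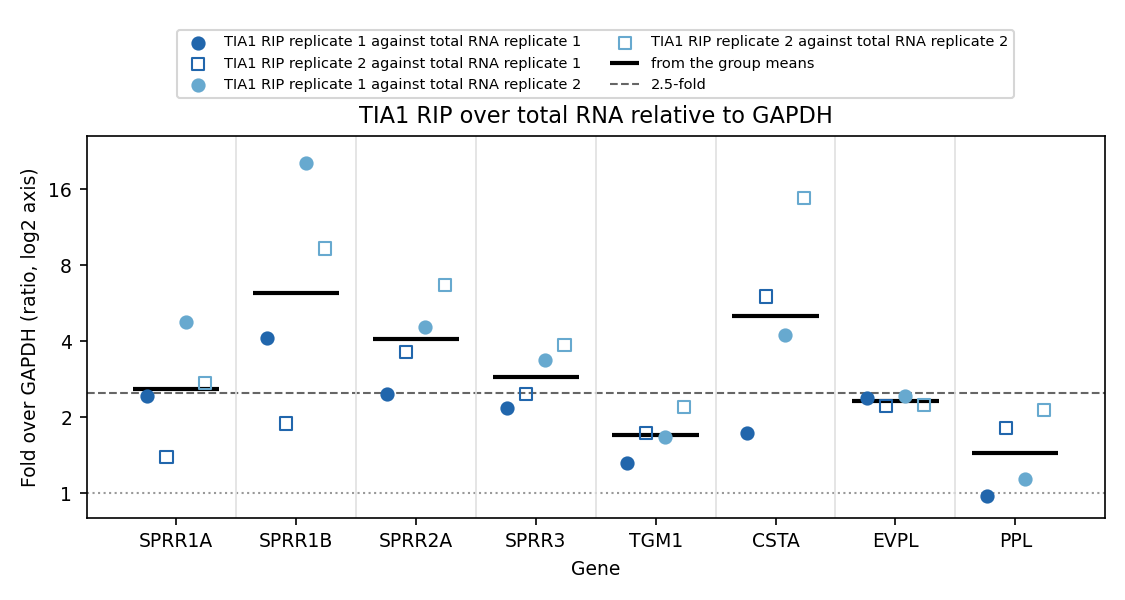
The fold of TIA1 RIP over total RNA relative to GAPDH (ratio, log2 axis) is plotted for the 8 detected genes in each of the 4 pairs of arrays, with a bar for the value from the group means and a dashed line at 2.5-fold. The bars of SPRR1A, SPRR1B, SPRR2A, SPRR3 and CSTA lie above 2.5-fold, from 2.58 to 6.19, and those of TGM1, EVPL and PPL below it.

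Without total RNA replicate 1, SPRR1A, SPRR1B, SPRR2A, SPRR3 and CSTA passed the adjusted threshold relative to GAPDH in limma, with adjusted p from 0.00146 for SPRR1B to 0.0267 for SPRR1A. In that fit 73.1% of all genes passed as higher and 1.86% as lower.

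Scaling to the E1A spike-in probes, which measure control RNA added for labelling, moved the median log2 ratio of all genes to 4.87 and that of the members to 4.30. On this scale SPRR1B, SPRR2A, SPRR3 and CSTA passed the adjusted threshold in limma as higher, 4 of 8 members beside 67.5% of all genes, and 0% passed as lower. This scaling shifts every ratio by the same amount, so the gap between the members' median and that of all genes was unchanged by construction.

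The rest of the envelope pathway was read from 4 further lists of 78 genes, of which 77 were on the array and 35 were detected and tested. Of these 35, 0 passed the adjusted threshold (the lowest adjusted p was 0.776 in limma), 20 had a log2 ratio below 0 and 15 above, and the median was -0.17. At an unadjusted p under 0.05, 1 was lower, LCE1D, and 0 were higher. Relative to GAPDH, 25 of 35 passed 2.5-fold on the means, beside 72.4% of all genes. Every gene of these lists without a probe detected on all 4 arrays was among the 25. Most of those had a total RNA value under the dimmest detected level of its array, so their fold leans on undetected signal. Of all genes with probes detected on all 4 arrays, 64.2% passed.

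Among the other precursor proteins, which share the chromosome 1 cluster or its gene families, 11 of 35 were tested, 9 of them below 0, with a median log2 ratio of -0.78. The late cornified envelope gene LCE1D stood at 5.84 and 5.46 on the TIA1 RIP arrays and at 7.19 and 10.63 on the total RNA arrays. Its log2 ratio was -3.26 (adjusted p = 0.776 from limma, and 0.0139 with the replicate number as a block). In the block fit 2.29% of all genes passed as lower, and a shared replicate number is only a hint of a pairing. Its neighbours LCE1A and LCE1C had log2 ratios of 0.07 and -0.32. LCE genes are close paralogs, so these signals may hold RNA of one another. On total RNA replicate 2, LCE1D stood at 10.63, GAPDH at 9.63, LCE1A at 5.46 and LCE1C at 6.33. Probes differ in brightness, so these levels do not rank the genes. Whether the LCE1D signal reflects LCE1D RNA was not tested.

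For the transglutaminases, proteases and inhibitors, 13 of 19 were tested, with a median log2 ratio of -0.03 and a range from -1.90 to 1.85. In 4 of the 13 both TIA1 RIP arrays lay below both total RNA arrays and in 5 above, against 21.7% and 19.4% of all genes. Only 9 of the 13 had a probe detected on all 4 arrays. Most of the 5 above lacked one, and on total RNA replicate 2 they lay under its dimmest detected level, -1.12. Such genes passed the filter through TIA1 RIP, so their place above is not independent of it. The gene at 1.85 was among them. CSTB, the cystatin paralog of CSTA, had a log2 ratio of 1.38, the cysteine protease gene CTSV 1.22 and the kallikrein KLK8, a serine protease of the upper epidermis, -1.90 (adjusted p = 0.776 for each in limma). CSTB stood above its total RNA values on both TIA1 RIP arrays, whereas for CSTA the groups overlapped.

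The envelope-associated and suprabasal proteins had 8 of 14 genes tested and a median log2 ratio of 0.24. ANXA1, a membrane-binding annexin that is cross-linked into the envelope, had a log2 ratio of 1.78 with total RNA values of 6.41 and 2.18, so that the ratio rests on total RNA replicate 2. EMP1, an epithelial membrane protein, had 1.53 and non-overlapping groups, and the suprabasal keratin KRT10 had 0.35. Of the genes listed for the lipid envelope, 3 of 10 were tested. The ceramide synthase gene CERS3 had a log2 ratio of 0.05 and NIPAL4, an ichthyosis gene, -0.60.

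**Figure D5:**
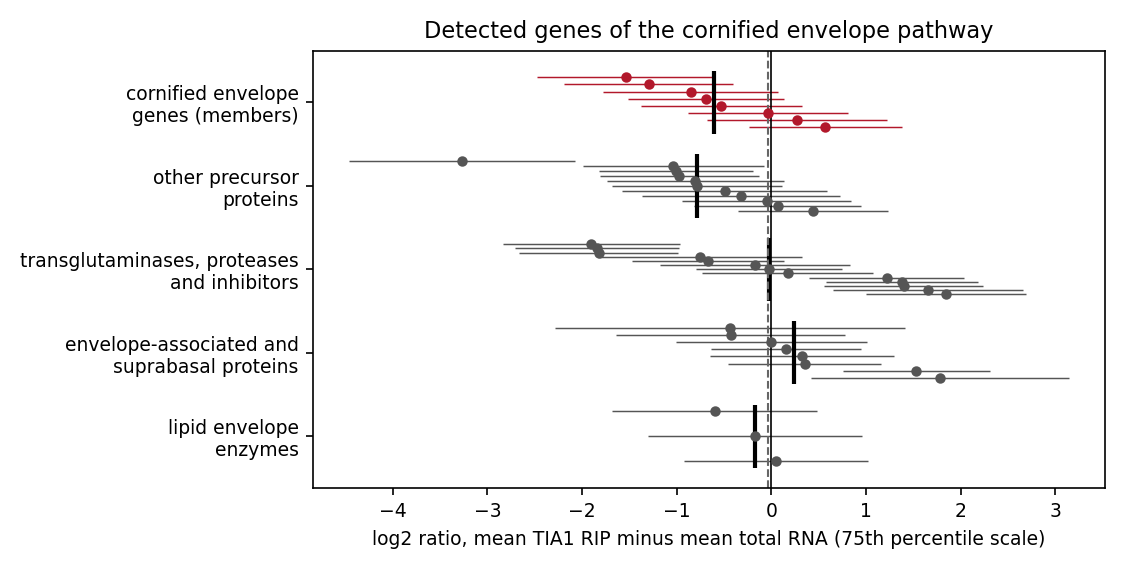
The log2 ratio of mean TIA1 RIP to mean total RNA (75th percentile scale) is plotted for each detected gene of the cornified envelope set and of 4 further pathway lists, with SE bars from limma, a thick bar at the median of each list and a dashed line at the median of all genes. The medians run from -0.78 for the other precursor proteins to 0.24 for the envelope-associated and suprabasal proteins, with -0.61 for the cornified envelope set, and every list spans 0.

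The genes whose profile lay nearest to the median profile of the 8 members were sought over all genes, each profile being the 4 scaled log2 signals minus their mean. The members' median profile was -0.45 and -0.18 on TIA1 RIP replicates 1 and 2 and -0.27 and 0.90 on total RNA replicates 1 and 2. The nearest were UROS, LOX and HFE, at root mean square differences of 0.03, 0.03 and 0.04. The profile is thus set mainly by total RNA replicate 2, and with 4 arrays a near match says little more than that.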

How the data were processed

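The deposited files, made by the authors from 4 single-colour whole human genome arrays with Agilent Feature Extraction 10.7 per the labels, give a linear, background-subtracted fluorescence intensity per spot. The deposited intensity is not normalized between arrays. The authors analysed it further in GeneSpring, and their test and scaling are not given in the sources used here.

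From 58717 non-control spots per array, the 299 to 382 spots with a mark for uneven or outlying signal were dropped. No saturation was recorded. Processed signals were converted to log2, each array's 75th percentile was subtracted, and replicate spots were averaged. Detection on an array required a share of at least 0.5 of a probe's spots to be well above background, and kept probes were those detected in both arrays of a group, for 1 group or more. Kept probes of a symbol were averaged. This gave 13038 genes, and 3 further genes were lost with 6 probes that had a marked spot. Identifiers were matched to symbols through RefSeq (names only) and GENCODE 44 on GRCh37, for 34510 of 50599 probes.

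The functions lmFit and eBayes of limma 3.58.1, under R 4.3.3, compared the groups, with Benjamini-Hochberg adjustment over all genes and a threshold of 0.05, on this scale and again after subtraction of the GAPDH value of each array. The fit was tested on simulated data. Tables and figures were made with Python 3.11.15, pandas 2.3.3 and matplotlib 3.10.9. Precision is limited by having 2 arrays per group. Alternatives covered background correction, scaling, filters, probe choice, reference gene, fold limit, the replicate block and each array left out. 3′ UTRs come from canonical GENCODE transcripts, found for 88.3% of kept genes.

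The members, the pathway lists and the tests were chosen with earlier results of these data known. Named are all members, GAPDH, the 3 genes of each further list that were brightest in total RNA among those detected on all 4 arrays, and the 3 genes nearest in profile. The lipid list had only 2 such genes. The normexp alternative used the median spot intensity, chosen after seeing the data, because the deposited files used here hold no mean intensity.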

Additional observations from a re-analysis of the deposited data

How the results depend on the processing

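Total RNA replicate 2 was dim and only 2 arrays stood in each group, which limits every ratio. The median log2 ratio of the members, -0.61, ran from -1.19 to 0.13 when each array was left out in turn, the latter without total RNA replicate 2, and from -0.61 to -0.24 over the other alternatives on the 75th percentile scale except scaling to the E1A spike-in probes, which gave 4.30 where all genes had 4.87. That scaling called 8795 genes higher and 0 lower in limma, among them SPRR1B, SPRR2A, SPRR3 and CSTA. It turned 6 members above 0, SPRR1A to 4.22, SPRR2A to 4.87, SPRR3 to 4.38, TGM1 to 3.62, EVPL to 4.06 and PPL to 3.38; relative to the shift of all genes their order was unchanged by construction. The ratio of SPRR2A also became 0.22 after quantile normalization, and 0.27 and 0.20 with the 75th percentile and the median over probes detected on all 4 arrays. With each array left out, SPRR2A ran from -0.58 to 0.50, SPRR3 from -1.19 to 0.13, CSTA from -0.73 to 1.27 and EVPL from -1.82 to 0.12. The cause was not tested.

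Counts of genes past the adjusted threshold in limma, 0 higher and 0 lower, ran from 0 to 1849 and from 0 to 2050 with each array left out. The high counts came without total RNA replicate 1, and 7 were lower without TIA1 RIP replicate 1. Genes past both 2.5-fold over GAPDH and the adjusted threshold ran from 0 to 9532, again without total RNA replicate 1. The 5 members past 2.5-fold over GAPDH became 3 with ACTB as the reference, 0 with the median of all genes, 3 at a limit of 4-fold, and 3 to 5 with each array left out, 3 without total RNA replicate 2 and 4 without TIA1 RIP replicate 1. The members' median against total RNA replicate 2 alone, -1.19, became -0.53 with normexp. All other summary values kept their direction and their side of the threshold or stayed within 1.5 times.

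The replicate numbers were not taken as a pairing, since with 2 pairs a shared number is only a hint (r = 0.453 across genes between the deviations of same-numbered arrays). With the replicate block, limma called 57 genes as higher in TIA1 RIP and 299 as lower after adjustment, none of them a member. LCE1D of the further pathway lists was among the lower genes (adjusted p = 0.0139). The slide or scan as a block was not run, because all arrays were on 1 slide and in 1 scan.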
